A study of Homo sapiens with 33 samples.

Results

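H3K4me1 was compared between EZH2-restored and null H9 human ESCs over all 149487 windows around start sites on chromosomes 1 to 22, of 153958 windows in the ChIP-seq table. H9 is an established human embryonic stem cell line. The null cells (labelled Null, EZH2 -/-) carry disrupted copies of EZH2 on both chromosomes, and the restored cells (labelled Null+EZH2, EZH2 -/- +EZH2) are the same kind of cell with a doxycycline-induced piggyBac EZH2 transgene switched on. The WT (EZH2 +/+) and Het (EZH2 -/+) ESCs of the series were used for levels only. The lines were clonal, the null cells were made in the presence of the transgene and then kept without doxycycline, and all cells were grown on mouse feeder cells and sorted for the surface marker SSEA4 before native ChIP with micrococcal nuclease. The windows are all those the table holds on these chromosomes, and none was chosen by its value. Each window is 5 kb wide, 2.5 kb either side of a start site, and its value is RPM, the reads in the window scaled to the size of the library. The table holds 1 H3K4me1 column and 1 input column per genotype, and each column averages 2 libraries. Replicates therefore could not be compared, and the differences below carry no p value. Changes between the genotypes and changes between these particular libraries cannot be told apart.

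H3K4me1, a single methyl group on lysine 4 of histone H3, is best known as a mark of enhancers and of the flanks of active start sites, where MLL family enzymes place it. EZH2 is the catalytic subunit of Polycomb repressive complex 2, which places H3K27me3, and in ESCs many promoters of developmental regulators carry H3K27me3 together with H3K4me3, a state called bivalent. Such promoters lie mostly in CpG islands.

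The promoters printed here come from the windows with the largest differences in H3K4me1, so that their base composition can be set beside the values. HOXA7, ROBO3 and KLK4 were lower in EZH2-restored than in null ESCs, and ORM1 was higher. Each sequence is 300 bases from RefSeq on GRCh38.p14 (250 before the start site and 50 after it), read 5′ to 3′ on the strand of the gene, with every CpG in capitals. All 4 lie inside the window measured for the gene.
HOXA7 (chr7:27156626-27156925, minus strand): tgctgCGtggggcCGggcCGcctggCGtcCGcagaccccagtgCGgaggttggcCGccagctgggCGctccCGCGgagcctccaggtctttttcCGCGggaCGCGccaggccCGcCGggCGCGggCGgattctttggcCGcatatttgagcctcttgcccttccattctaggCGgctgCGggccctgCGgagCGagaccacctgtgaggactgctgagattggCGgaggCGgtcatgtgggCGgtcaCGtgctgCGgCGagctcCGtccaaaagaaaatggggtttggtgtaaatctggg
ROBO3 (chr11:124865182-124865481, plus strand): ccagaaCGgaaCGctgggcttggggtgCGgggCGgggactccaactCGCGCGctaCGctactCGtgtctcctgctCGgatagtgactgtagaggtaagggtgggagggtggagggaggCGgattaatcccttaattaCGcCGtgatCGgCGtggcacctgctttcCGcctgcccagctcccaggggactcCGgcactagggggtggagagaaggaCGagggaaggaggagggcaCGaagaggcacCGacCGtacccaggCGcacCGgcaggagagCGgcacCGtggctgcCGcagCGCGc
KLK4 (chr19:50910689-50910988, minus strand): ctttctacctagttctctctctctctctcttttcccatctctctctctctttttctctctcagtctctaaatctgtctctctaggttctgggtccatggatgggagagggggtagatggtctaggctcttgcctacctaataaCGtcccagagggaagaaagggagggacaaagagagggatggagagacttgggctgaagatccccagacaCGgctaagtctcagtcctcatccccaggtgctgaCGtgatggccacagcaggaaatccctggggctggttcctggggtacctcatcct
ORM1 (chr9:114322848-114323147, plus strand): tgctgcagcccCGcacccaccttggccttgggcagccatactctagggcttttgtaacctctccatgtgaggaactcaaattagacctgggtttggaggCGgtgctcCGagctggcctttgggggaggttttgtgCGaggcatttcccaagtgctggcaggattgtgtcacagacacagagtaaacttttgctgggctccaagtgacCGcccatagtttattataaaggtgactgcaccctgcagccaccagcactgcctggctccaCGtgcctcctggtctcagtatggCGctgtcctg
HOXA7 has 31 CpG in the 300 bases and ROBO3 has 28, against 3 in KLK4 and 7 in ORM1. Over the 33725 RefSeq promoters of chromosomes 1 to 22 the median was 14 CpG, with quartiles at 4 and 28. The CpG-poor KLK4 promoter lay in a window with both H3K27me3 and H3K4me3 in WT ESCs, as did HOXA7 and ROBO3, and ORM1 in a window with H3K27me3 alone.

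From the steps between low values, an H3K4me1 library held about 12.2 M reads in null ESCs and 18.5 M in EZH2-restored ESCs, as the geometric mean of the pair in each column. For input it was 17.8 M and 19.2 M. The level of H3K4me1 varied more from window to window in null ESCs than in the other genotypes. The SD of log2(RPM + 0.1) over windows was 1.06 in Null, 0.94 in Null+EZH2, 0.91 in Het and 0.79 in WT ESCs. For input the SD lay between 0.27 and 0.33 in all 4 genotypes. A difference in spread between columns moves the low and the high windows in opposite directions, so the medians of all windows, classes and lists were repeated after the EZH2-restored column had been scaled to the median and quartiles of the null column over windows without H3K27me3. In the RNA-seq of the same genotypes, EZH2 was at 11.5, 8.65 and 9.68 RPM in the 3 null libraries and at 271, 385 and 256 RPM in the 3 restored libraries. Its mean was 63.8 ± 4.56 RPM in WT and 51.2 ± 4.95 RPM in Het ESCs, so restored ESCs held more EZH2 RNA than WT ESCs. All 6 ESC markers examined were expressed in both groups. POU5F1 was at 1294 ± 208 RPM in null and 1266 ± 42.7 RPM in restored ESCs (SD, n = 3 libraries). Of 14 markers of differentiated cells, 13 had a higher mean in null ESCs, and 5 (SOX17, HAND1, COL3A1, TWIST1 and GATA3) were lower in restored ESCs in the limma fit, where 2.63% of all 20608 genes tested were lower and 0.524% higher. With the library number as a block 7 were lower, where 6.19% of all genes were lower and 3.21% higher. The summed level of the 14 was 219 to 498 RPM in the null libraries and 106 to 204 RPM in the restored ones. In null ESCs SOX17 (endoderm) was at 20.5 ± 7.53 RPM, T (mesoderm, adjusted p = 0.054 from limma) at 25.6 ± 7.21 RPM and COL3A1 (mesenchyme) at 53.8 ± 52.3 RPM. In restored ESCs they were at 3.34 ± 1.01, 5.19 ± 6.18 and 0.226 ± 0.324 RPM. COL1A2, another mesenchyme marker of the 14, hardly differed, at 89.5 ± 32.1 RPM in null and 86.0 ± 15.8 RPM in restored ESCs. It made up much of the summed level in restored ESCs. Fewer cells of such a type and less mark per cell cannot be told apart in these bulk samples, and the part of differentiated cells in the H3K4me1 differences was not tested.

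Over all windows, H3K4me1 was slightly lower in EZH2-restored than in null ESCs. The median level was 2.87 RPM in Null, 2.62 RPM in Null+EZH2, 2.78 RPM in Het and 2.73 RPM in WT ESCs. The median log2 difference, restored minus null on the log2(RPM + 0.1) scale, was -0.11 (interquartile range -0.30 to 0.11), with 63.7% of the windows lower. After scaling for the spread it was -0.004, so that the shift of the whole distribution rests on the scale used and the differences below are set beside the median of all windows. The input difference had a median of 0.05 and an interquartile range of -0.13 to 0.23. In windows with a mean of at least 1 RPM of H3K4me1, the SE expected from counting reads had a median of 0.22 for H3K4me1 and 0.28 for input. There, 12.6% of the windows lay outside the 95% interval that counting error gives around the median H3K4me1 difference, and 3.84% did so for input. Error from other sources comes on top of counting error. The SE was computed for log2(RPM), without the 0.1 added, so it is somewhat too large for these differences, most at low windows.

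The differences were arranged by the marks that a window carried in WT ESCs, which are independent of the comparison. A window counted as marked by H3K27me3 where its WT value was over 0.1 log2 RPKM and its WT input was under 0.1, and as marked by H3K4me3 where that value was over 0.1. Windows with H3K27me3 were the lowest in the comparison. Those with both marks (15635 windows) had a median log2 difference of -0.33 (95% binomial interval of the median over windows -0.33 to -0.33, interquartile range -0.47 to -0.19). Those with H3K27me3 alone (2924 windows) had -0.28, those with H3K4me3 alone (55027 windows) had -0.16, and those with neither (75901 windows) had 0.02. H3K4me1 was lower in restored ESCs at 93.2% of the windows with both marks and at 47.8% of the windows with neither. Windows overlap where a gene has several start sites, so the binomial intervals are narrower than separate loci would give. The medians were -0.17, -0.16, -0.03 and 0.07 in the same order after scaling for the spread. With 1 window for each of the 34447 gene names the medians were -0.33, -0.25, -0.16 and -0.002.

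**Figure D1:**
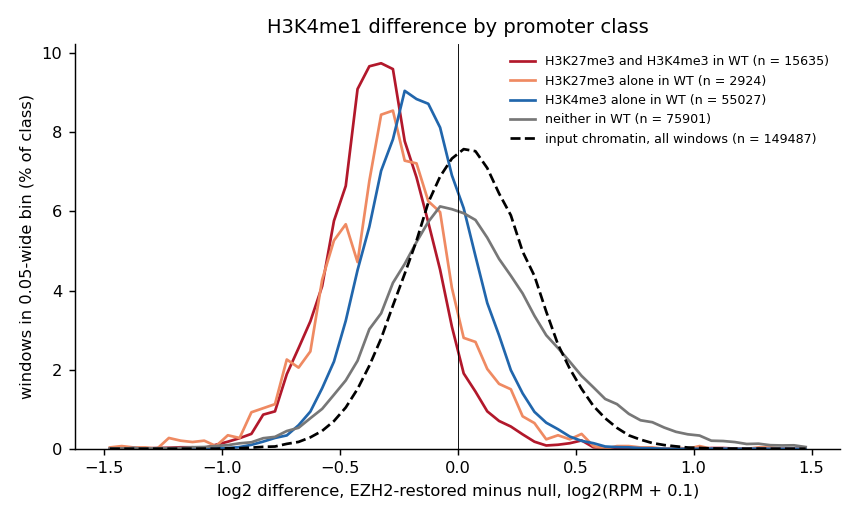
Share of windows (y axis, percent of the class in bins 0.05 wide) by the log2 difference in H3K4me1 between EZH2-restored and null ESCs (x axis), for windows grouped by their marks in WT ESCs, with the input difference of all windows as the dashed line. The curves of both classes with H3K27me3 are centred at -0.33 and -0.28, left of the curve for windows with neither mark (0.02) and of the input (0.05).

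The levels in the 4 genotypes show where the windows with H3K27me3 stood apart. At windows with both marks, the median H3K4me1 level was 3.63 RPM in WT, 3.89 RPM in Het, 4.70 RPM in Null and 3.69 RPM in Null+EZH2 ESCs. At windows with H3K27me3 alone it was 2.85, 2.83, 3.67 and 2.88 RPM in the same order. Null ESCs had the highest median in both classes, and the other 3 genotypes were closer to each other than to Null. Where H3K4me3 stood alone the medians were 3.19, 3.36, 3.37 and 3.02 RPM, and where neither mark was present they were 1.93, 1.79, 1.72 and 1.76 RPM. Input at windows with both marks ranged only from 1.34 to 1.46 RPM across the genotypes. The median log2 difference from WT at windows with both marks was 0.35 for Null, 0.01 for Null+EZH2 and 0.11 for Het ESCs, values that share the WT column. The log2 ratio of H3K4me1 to input of the same genotype had a median of 1.76 in null and 1.36 in restored ESCs at these windows, and of 0.12 and 0.10 at windows with neither mark. None of these levels, differences and ratios was scaled for the spread. The SD of H3K4me1 over windows was 1.06 in Null, 0.94 in Null+EZH2 and 0.79 in WT ESCs.

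**Figure D2:**
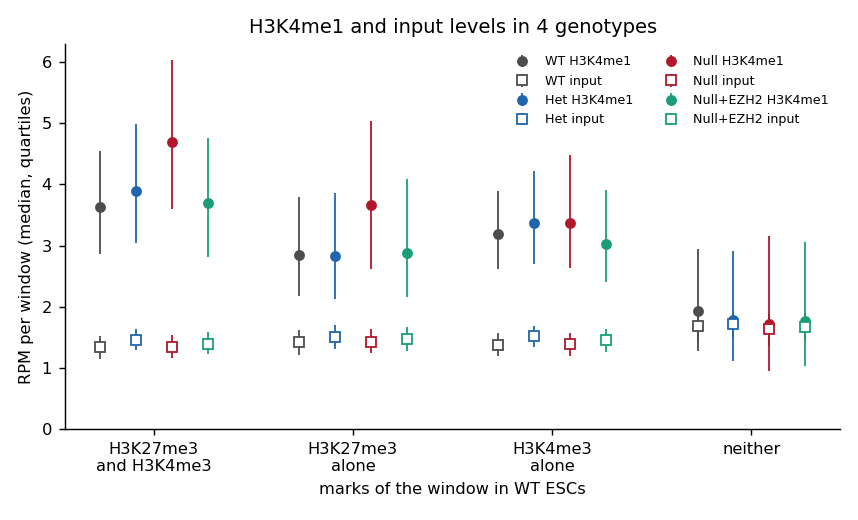
Median RPM per window with quartiles (y axis) of H3K4me1 (filled circles) and input (open squares) in WT, Het, Null and Null+EZH2 ESCs, for windows grouped by their marks in WT ESCs (x axis). Null is the highest of the 4 genotypes at windows with both marks (4.70 RPM) and with H3K27me3 alone (3.67 RPM), while input stays between 1.34 and 1.72 RPM in every class.

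Windows with both marks, with H3K4me3 alone and with neither were also compared at like level. When all windows were ranked by WT H3K4me1 and divided into 5 equal bins, windows with both marks had medians between -0.35 and -0.22 across the bins, and windows with neither mark had medians between -0.04 and 0.10. In 5 bins of CpG content (the observed over expected CpG ratio of the window), windows with both marks lay between -0.34 and -0.25 and those with neither between -0.09 and 0.04. In 5 bins of WT input the corresponding ranges were -0.35 to -0.28 and -0.02 to 0.08. Windows with H3K4me3 alone lay between, at -0.20 to -0.15 by WT H3K4me1, -0.18 to -0.16 by CpG content and -0.20 to -0.12 by WT input. In the lowest bin of WT H3K4me1 they were close to windows with both marks, at -0.20 against -0.22 (both -0.22 after scaling). After scaling for the spread, windows with both marks had medians from -0.28 to -0.10 across the bins of WT H3K4me1. In the bin with the least CpG, which holds 80 windows with both marks, the scaled median was 0.05.

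Among the 18559 windows with H3K27me3 in WT, the difference in H3K4me1 was larger where WT ESCs had more of the Polycomb mark and of EZH2. Ranked by WT H3K27me3, the median log2 difference was -0.27 in the lowest of 5 bins (median 5.97 RPM of H3K27me3) and -0.41 in the highest (27.7 RPM). In the highest bin the H3K4me1 median was 5.23 RPM in null and 3.96 RPM in restored ESCs, against 4.11 and 3.41 RPM in the lowest. Ranked by WT EZH2 occupancy, a single library, the median log2 difference was -0.27 in the lowest and -0.38 in the highest bin. There the H3K4me1 median in null ESCs was 4.30 and 5.09 RPM. The bins thus also differed in level, and their medians were not repeated after scaling for the spread. Input differed by 0.03 to 0.05 in every one of these bins. The other marks of the same windows, compared in the same way, had medians of 3.33 for H3K27me3, -0.65 for H3K27ac and 0.08 for H3K4me3. Across all windows the H3K4me1 difference had a Spearman correlation of -0.32 with that of H3K27me3, 0.31 with that of H3K27ac, 0.06 with that of H3K4me3 and -0.01 with that of input (n = 149487 windows, which overlap and share cell pools and base composition). Within the windows with H3K27me3 the first 2 values were -0.21 and 0.12.

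By chromosome, the median difference ranged from -0.17 on chromosome 19 to -0.02 on chromosome 21. Restricted to windows with H3K27me3, it lay between -0.39 (chromosome 16) and -0.22 (chromosome 18) and was below that of the other windows on all 22 chromosomes. Input medians of the chromosomes ranged from 0.02 to 0.08, and those of 292 bins of 10 Mb from -0.09 to 0.16.

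Differences of 2-fold or more were rare. Of the 130054 windows with a mean of at least 1 RPM, 175 were 2-fold lower in EZH2-restored ESCs (0.135%) and 187 were 2-fold higher (0.144%). Input passed the same threshold in 0.0123% of these windows (lower) and 0.0461% (higher), H3K27ac in 2.99% and 1.13%, H3K4me3 in 0.297% and 0.7%, and H3K27me3 in 0.934% and 35.5%. The windows that were 2-fold lower formed 91 loci when overlapping windows were joined, and those that were higher formed 130. The low and the high windows differed in level and in the marks around them. Windows with H3K27me3 in WT made up 43.4% of those that were 2-fold lower (76 windows) and 1 of the 187 that were higher, and they made up 14.2% of the windows with a mean of at least 1 RPM. The median level of the 2-fold lower windows was 3.10 RPM in Null, 1.40 RPM in Null+EZH2, 2.04 RPM in Het and 1.99 RPM in WT ESCs. That of the 2-fold higher windows was 0.805 RPM in Null, 1.91 RPM in Null+EZH2, 1.98 RPM in Het and 2.24 RPM in WT ESCs, with a median CpG ratio of 0.23. Of the 20303 windows with a mean of at least 5 RPM, 15 were 2-fold lower and 0 were 2-fold higher. At a mean under 1 RPM, where the counting SE had a median of 0.46, 135 were lower and 1105 higher. At 1.5-fold, 5356 windows were lower (4.12%) and 2365 higher (1.82%), and among windows with both marks 1840 were lower and 6 higher.

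The HOX clusters, which encode homeodomain factors that pattern the body axis, held a large share of the low windows. Of the 15 windows at or above 5 RPM that were 2-fold lower, 13 lay within the HOXA or HOXC cluster, and of all 175 windows 35 lay within a HOX cluster. The HOX clusters held 209 of the 149487 windows. These counts are not of separate loci, since most of the 13 overlap around HOXC10. There, 11 of the 2-fold lower windows joined into a single locus (chr12:53981824-53993124). All 39 HOX genes with a window were lower in restored ESCs, with a median log2 difference of -0.58 against -0.11 over all gene names, and 6 of them were 2-fold lower, where 0.196% of all gene names were lower and 0.16% higher. At 1.5-fold, 19 were lower, where 4.17% of all gene names were lower and 1.7% higher. Their median H3K4me1 level was 6.71 RPM in Null, 4.49 RPM in Null+EZH2, 4.40 RPM in Het and 4.85 RPM in WT ESCs, and their input differed by a median of 0.07. After scaling for the spread the median was -0.41, and 36 of the 39 were lower. All 39 carried H3K27me3 in WT ESCs, 37 of them together with H3K4me3. Of all gene names with H3K27me3 in WT, 91.2% were lower, with a median log2 difference of -0.32 (-0.15 after scaling). Of those with a mean of at least 1 RPM, 0.499% were 2-fold lower and 11.0% were 1.5-fold lower.

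The HOXC cluster on chromosome 12 stood lowest of the 4, at a median of -0.84 over 9 genes. HOXC13, at the 5′ end of the cluster (chr12:53936265-53941265), was at 2.30 RPM in WT, 2.65 RPM in Het, 7.48 RPM in Null and 2.34 RPM in Null+EZH2 ESCs. Only the null value stood apart, and the log2 difference was -1.64 (counting SE 0.19). HOXC10 (chr12:53982565-53987565), a gene of posterior identity, was at 3.67, 4.04, 8.26 and 3.23 RPM in the same order, a log2 difference of -1.33 (counting SE 0.17). HOXC8 was at 7.50 RPM in Null and 3.30 RPM in Null+EZH2 ESCs (-1.16), and HOXC12 at 4.79 and 2.16 RPM (-1.11). Start sites of 1 gene could differ widely. At HOXC4, the window with the most WT H3K4me1 was at 11.3 RPM in Null and 7.95 RPM in Null+EZH2 ESCs (-0.50), and another (chr12:54035354-54040354) was at 6.82 and 2.83 RPM (-1.24). HOXC5, between HOXC4 and HOXC6 start sites, was at 6.63 and 5.09 RPM (-0.37).

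Across the 115 kb from the HOXC13 start site to that of the last HOXC4 transcript, H3K4me1 was higher throughout in null ESCs. All 38 windows there were lower in restored than in null ESCs, 19 of them 2-fold. Many of these windows overlap and share reads, so the counts are not of separate measurements. Null ESCs were above WT and above Het ESCs in all 38 windows. Restored ESCs were above WT in 21 of the 38 and below it in the rest. The levels ran from 4.58 to 11.3 RPM in Null (median 7.25 RPM), from 1.92 to 7.95 RPM in Null+EZH2 (median 3.45 RPM), from 1.57 to 6.27 RPM in Het and from 1.72 to 7.69 RPM in WT ESCs. Input differences in these windows lay between -0.50 and 0.47, with a median of 0.00.

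**Figure D3:**
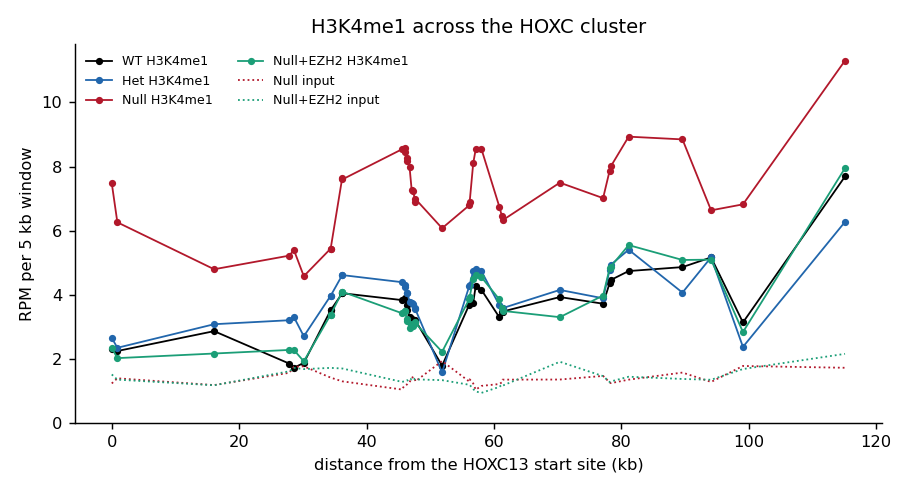
H3K4me1 RPM per 5 kb window (y axis) in WT, Het, Null and Null+EZH2 ESCs along the HOXC cluster, by the distance of the window centre from the HOXC13 start site in kb (x axis), with the input of both compared genotypes as dotted lines. The Null line runs above the other 3 in all 38 windows.

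In the HOXA cluster on chromosome 7 the median over 11 genes was -0.62. HOXA7 (chr7:27155436-27160436), whose CpG-rich promoter is printed above, was at 4.23 RPM in WT, 3.74 RPM in Het, 6.84 RPM in Null and 3.29 RPM in Null+EZH2 ESCs, a log2 difference of -1.03 (counting SE 0.17). HOXA5 (-0.97) and HOXA3 (-0.95) followed, and HOXA11 differed least (-0.24). In the HOXD cluster on chromosome 2 the median over 9 genes was -0.46. HOXD4 was at 6.36 RPM in Null and 2.43 RPM in Null+EZH2 ESCs, a difference of -1.35 (counting SE 0.19), while HOXD1 was at 4.70 and 4.27 RPM (-0.13), within its counting SE of 0.18. The HOXB cluster on chromosome 17 had a median of 7.51 RPM in null ESCs and a median difference of -0.40 with 1 window per gene (-0.14 after scaling for the spread), from -0.70 at HOXB9 to -0.17 at HOXB7. Over all windows of the genes, the medians were -0.60 for HOXB, -0.62 for HOXA, -0.58 for HOXD and -0.84 for HOXC. None of the 10 HOXB genes was 2-fold lower. Over all windows at HOX genes of the 4 clusters (112 windows), H3K27ac differed by a median of -0.61 and H3K4me3 by 0.37.

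The RNA of 21 of the 39 HOX genes reached a mean of 0.1 RPM and could be tested. In the limma fit, 12 of the 21 were lower in restored ESCs and 0 were higher, where 2.63% of all 20608 genes tested were lower and 0.524% higher. With the library number as a block, 15 were lower and 0 higher, where 6.19% and 3.21% of all genes were. HOXD13 was at 2.13, 4.37 and 2.49 RPM in the null libraries and listed at 0 in all 3 restored libraries (adjusted p = 1.7e-05 from limma). HOXA7 was at 0.211, 0.432 and 1.28 RPM in the null libraries and at 0 in the restored ones (adjusted p = 0.012). HOXB7 RNA was at 0.352, 0.901 and 1.19 RPM in null and at 0 in restored libraries (adjusted p = 0.0019), and its H3K4me1 window was among those that differed least. HOXC13, HOXC10 and HOXC8, whose windows differed most within their cluster, did not reach 0.1 RPM of RNA. Antisense transcripts overlap many HOX genes, and the reads were counted without regard to strand.

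Outside the HOX clusters, the largest low windows at 5 RPM or more were those of single genes. Of 6028 gene names with a mean of at least 5 RPM whose input differed by 0.5 or less, the 12 lowest and the 12 highest by locus are described. The 12 lowest had log2 differences from -1.33 to -0.80, with counting SEs of at most 0.17, and 11 of them carried H3K27me3 in WT ESCs. After HOXC10 and HOXA7 came KLK4, a secreted serine protease (chr19:50908238-50913238). It was at 4.69 RPM in WT, 4.73 RPM in Het, 8.93 RPM in Null and 4.38 RPM in Null+EZH2 ESCs (-1.01). B4GALT1, a galactosyltransferase, was at 6.57 RPM in Null and 3.54 RPM in Null+EZH2 ESCs (-0.87). PKP3, a plakophilin of desmosomes, was the 1 window of the 12 with neither mark in WT, at 6.81 and 3.73 RPM (-0.85). SHISA6, an AMPA receptor partner, was at 7.74 and 4.28 RPM (-0.84), and SPON1, an extracellular matrix protein of the nervous system, at 6.87 and 3.84 RPM (-0.82).

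The rest of the 12 included regulators of other lineages. MYOD1, the muscle determination factor, was at 5.30 RPM in WT, 4.65 RPM in Het, 7.14 RPM in Null and 4.03 RPM in Null+EZH2 ESCs (-0.81). PDX1, a pancreatic homeodomain factor, was at 4.88, 4.49, 6.52 and 3.71 RPM in the same order (-0.80). GFI1, a blood zinc finger repressor, was at 8.25 RPM in Null and 4.65 RPM in Null+EZH2 ESCs (-0.82), and ROBO3, an axon guidance receptor, at 8.66 and 4.87 RPM (-0.82). HCG9, a long noncoding RNA of the HLA region, was at 7.68 and 4.35 RPM (-0.81). Null was the highest of the 4 genotypes at each of the 12, which the choice of the largest falls from null favours. The restored value was not always near WT. The log2 difference from WT was 0.36 for Null and -0.46 for Null+EZH2 at GFI1, and 0.41 and -0.39 at PDX1. At HOXC10 it was 1.15 and -0.18. The H3K27ac difference of the 12 lay between -1.25 and -0.02. Of the 7 whose RNA could be tested, HOXA7, PKP3 and SPON1 were lower in restored ESCs in the limma fit (2.63% of all genes), and with the block 4 were, B4GALT1 being the fourth (6.19% of all genes). PKP3 was at 5.96, 15.2 and 24.0 RPM in the null libraries and 1.31, 2.2 and 3.00 RPM in the restored ones (adjusted p = 0.032). SPON1 was at 6.84, 13.9 and 10.8 RPM against 3.27, 3.03 and 3.20 RPM (adjusted p = 0.0075). In both genes every null library was above every restored library.

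The 12 highest windows differed less, with log2 differences from 0.49 to 0.73, and were of another kind. Of the 12, 10 had neither mark in WT ESCs, and their CpG ratio ran from 0.17 to 0.33, against 0.34 to 0.72 for the 12 lowest. By GENCODE 44, 11 of the 12 had their start site more than 5 kb inside the gene they are named for, and up to 113 kb inside, while 10 of the 12 lowest windows had it within 1 kb of the gene's start. DNAJC18, a DNAJ co-chaperone, was at 6.37 RPM in WT, 6.62 RPM in Het, 3.82 RPM in Null and 6.39 RPM in Null+EZH2 ESCs, a difference of 0.73 (counting SE 0.18). Here the null value was the low one, and the other 3 genotypes lay close together. RBM19, an RNA-binding protein of ribosome assembly, was at 6.03, 4.99, 3.79 and 6.29 RPM in the same order (0.72). PLXND1, a semaphorin receptor, was at 5.65 RPM in Null and 8.44 RPM in Null+EZH2 ESCs (0.57), and FAM120B at 4.23 and 6.40 RPM (0.58). At other windows the null value did not stand apart. DPCD was at 6.01 RPM in WT, 8.41 RPM in Het, 5.52 RPM in Null and 8.51 RPM in Null+EZH2 ESCs (0.62). IQCH was at 3.72, 4.58, 4.07 and 6.18 RPM in the same order (0.59), so that there the restored value was the high one. ORM1, an acute phase plasma protein, was at 5.39 RPM in Null and 7.59 RPM in Null+EZH2 ESCs (0.49), with input at 4.00 and 4.09 RPM, the highest input of the 24 windows. All 12 were tested for RNA, and in the limma fit 0 passed in either direction, where 0.524% of all genes were higher and 2.63% lower. With the block 2 were higher and 1 lower, where 3.21% and 6.19% of all genes were.

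Of the loci with differences of 2-fold, a few with several windows are given as examples chosen after their values were seen. The windows of a locus overlap and share reads, so they are not separate measurements. Around MS4A6A, a membrane protein of macrophages, 16 windows on chromosome 11 had a median of 0.753 RPM in Null, 1.83 RPM in Null+EZH2, 2.63 RPM in Het and 2.95 RPM in WT ESCs. MS4A3, another gene of that family, had 4 windows with a median of 0.784 RPM in Null and 2.38 RPM in Null+EZH2 ESCs. DCN, an extracellular matrix proteoglycan, had 5 windows at 0.973 and 2.08 RPM. Input medians in null ESCs were 1.35 to 1.80 RPM at these 3 loci, above the H3K4me1 in null ESCs. Low loci that lay outside Polycomb windows included ANKRD7 (6 windows, 2.12 RPM in Null and 0.725 RPM in Null+EZH2 ESCs) and ZNF671 (6 windows, 2.48 and 0.893 RPM). The windows of each overlap almost fully (chr7:118222158-118227405 and chr19:57725074-57730124). Their median counting SE was 0.34 at ANKRD7 and 0.31 at ZNF671. Input medians in restored ESCs were 1.53 RPM at ANKRD7 and 1.31 RPM at ZNF671, above the H3K4me1 in restored ESCs. SLC1A6, a glutamate transporter, and DGKA, a diacylglycerol kinase, carried H3K27me3 alone. DGKA had 4 windows with a median of 5.43 RPM in Null, 2.15 RPM in Null+EZH2, 2.11 RPM in Het and 2.00 RPM in WT ESCs.

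Among the lists of developmental genes, most members were lower in restored ESCs, with medians on either side of that of gene names with H3K27me3 (-0.32). Neuroectoderm genes had a median difference of -0.35 (32 of 35 lower), with NEUROD1, a neuronal bHLH factor, lowest at -0.71. Primitive streak genes had -0.34 (15 of 15 lower), and definitive endoderm genes -0.38 (13 of 14 lower). Lowest of the endoderm genes was SOX17, an endoderm transcription factor, at 3.78 RPM in Null and 2.18 RPM in Null+EZH2 ESCs (-0.77). Its input also differed by -0.37, which left -0.39 after subtracting the input difference. Kidney and intermediate mesoderm genes had -0.39 (13 of 13 lower), trophectoderm and amnion genes -0.33, endothelium and blood genes -0.25, cardiac mesoderm genes -0.24 and mesenchyme genes -0.21. None of these members was 2-fold lower. For comparison, 63.9% of all gene names were lower, and 91.2% of those with H3K27me3. The transcription factor families lay in the same range. The medians were -0.42 for DLX, -0.41 for IRX, -0.36 for T-box and LHX, -0.35 for SOX, PAX and GATA, and -0.22 for FOX genes. After scaling for the spread they lay between -0.28 (IRX) and -0.05 (FOX).

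Signalling ligands varied more widely. WNT ligands had a median of -0.31, BMP and GDF ligands -0.30 and FGF ligands -0.26, the last of these at 0.01 after scaling for the spread. FGF5 was at 6.85 RPM in Null and 4.03 RPM in Null+EZH2 ESCs (-0.75), whereas FGF10, a window with both marks, was at 2.30 and 3.91 RPM (0.74), one of the 6 windows with both marks that were 1.5-fold higher. BMP10 was at 2.25 and 0.827 RPM (-1.34, counting SE 0.33), the 1 ligand that was 2-fold lower. WNT16 was at 4.13 and 2.05 RPM (-0.98), where input also differed by -0.85. Among the CDK inhibitors, which halt the cell cycle, all 7 were lower (median -0.33, -0.19 after scaling for the spread), with an input median of 0.26. Of the 7, 6 carried H3K27me3, and 91.2% of all gene names with H3K27me3 were lower (median -0.32).

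Lists in which few members carried H3K27me3 had medians from -0.23 to 0.20, around that of all gene names (-0.11). ESC markers had a median of -0.23 (15 of 20 lower). POU5F1, the core pluripotency factor, was at 6.91 RPM in WT, 7.36 RPM in Het, 6.90 RPM in Null and 4.80 RPM in Null+EZH2 ESCs (-0.52), so that here the restored value was the one that stood apart. NANOG was at 6.40 and 6.33 RPM in Null and Null+EZH2 ESCs (-0.01). The enzymes that add or remove H3K4 methylation had a median of -0.18. Of these 21 genes, 0 passed in the limma fit of RNA, and with the block 1 was lower and 1 higher, where 6.19% and 3.21% of all genes were. Housekeeping genes had -0.18, ribosomal protein genes -0.09, keratins -0.08 and zinc finger genes -0.19. PRC2 subunits had -0.09, turning to 0.03 after scaling, with LCOR at 1.23 RPM in Null and 2.86 RPM in Null+EZH2 ESCs (1.15). The window of EZH2 itself was at 2.33 and 1.67 RPM (-0.46, counting SE 0.27). Clustered protocadherins had -0.05, with only 10 of 48 protocadherins at 1 RPM or more. Olfactory receptor genes had 0.20, but 81 of 382 reached 1 RPM, and their medians of 0.431 RPM in Null and 0.567 RPM in Null+EZH2 ESCs lay where 1 read weighs most.

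**Figure D4:**
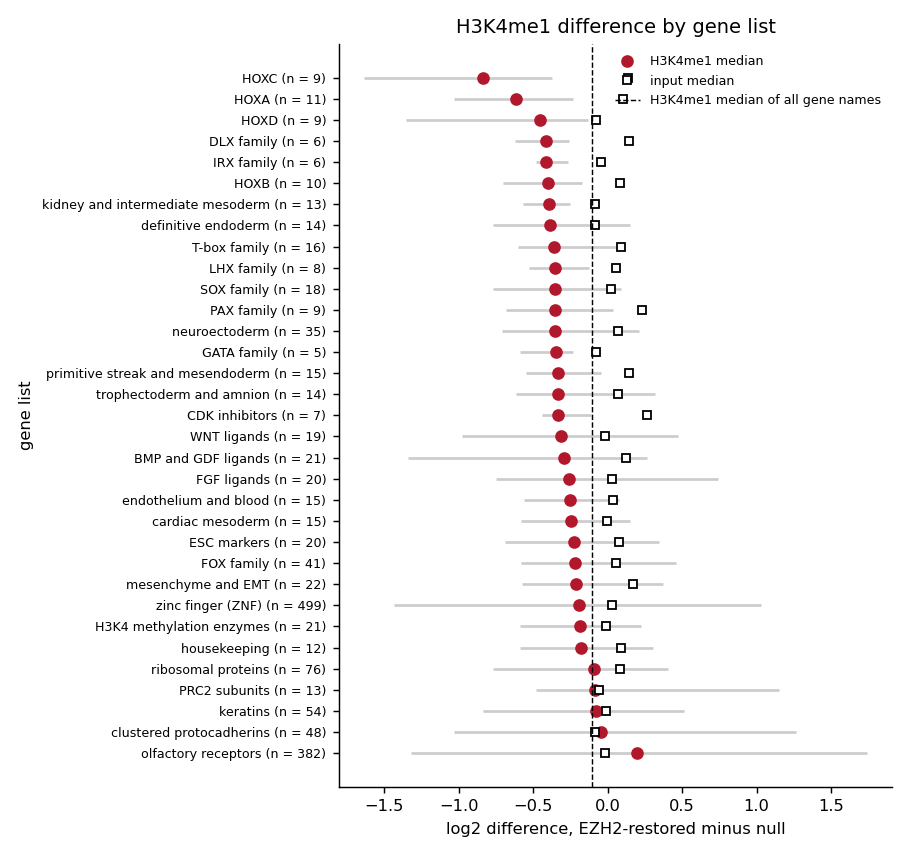
Log2 difference in H3K4me1 between EZH2-restored and null ESCs (x axis) for 33 gene lists (y axis, number of members in parentheses), with the median as a filled circle, the lowest and highest member as the ends of the grey line and the input median as an open square. The dashed line is the median of all gene names (-0.11), and the HOXC (-0.84) and HOXA (-0.62) lists lie farthest to its left.

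H3K4me1 was then arranged by the change in RNA. Without a block, 542 genes were lower and 108 higher in restored ESCs in the limma fit, 2.63% and 0.524% of those tested, and the block gave 1276 lower and 661 higher. Of the genes lower in RNA, 507 had a window, and their median H3K4me1 difference was -0.27, against -0.14 for 19218 genes without a call and -0.11 for 107 genes higher in RNA. H3K27me3 in WT covered 255 of the 507. Within those 255 the median was -0.38 (5.51 RPM in Null, 4.15 RPM in Null+EZH2 and 4.12 RPM in WT ESCs), against -0.32 for 3127 uncalled genes with H3K27me3. Among genes without H3K27me3 it was -0.17 for the 252 lower in RNA and -0.11 for 16091 without a call. After scaling for the spread these last medians were 0.035 and 0.034, those of genes with H3K27me3 were -0.20 and -0.14, and that of all 507 was -0.08. Only 2 of the 507 were 2-fold lower in H3K4me1. Over all 19832 genes with both values the Spearman correlation between the H3K4me1 and RNA differences was 0.12, a weak one.

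Large RNA differences came with small and large H3K4me1 differences alike. TWIST1, a mesenchymal transcription factor, was at 5.61, 7.96 and 8.34 RPM of RNA in null and 0.257, 0.161 and 0.320 RPM in restored libraries (adjusted p = 1.7e-05). Its H3K4me1 was at 4.64 RPM in Null and 4.15 RPM in Null+EZH2 ESCs (-0.16), within its counting SE of 0.18. COL3A1, a fibrillar collagen, was at 4.70, 109 and 47.8 RPM of RNA in null and 0.0514, 0.0268 and 0.600 RPM in restored libraries (adjusted p = 0.0095). Its H3K4me1, at 0.889 and 1.18 RPM, was below input (2.16 and 2.11 RPM) in both genotypes. HOXB6 had 0.264, 4.47 and 3.03 RPM of RNA in null and 0.0257, 0.0268 and 0.120 RPM in restored libraries (adjusted p = 0.022), with H3K4me1 at 9.60 and 5.87 RPM (-0.70). Among genes higher in RNA, MAPK10, a JNK family kinase, was at 6.57 and 7.91 RPM of H3K4me1 (0.26, adjusted p of its RNA 0.0038), while CA14, a carbonic anhydrase, was at 10.4 and 6.12 RPM (-0.76, adjusted p of its RNA 0.017). TBX3 (-0.38), T (-0.35) and GATA4 (-0.23), regulators of mesoderm and endoderm, were lower in H3K4me1 by amounts close to the median of windows with both marks (-0.33). Of these 3, the RNA of TBX3 passed (adjusted p = 0.0028), and that of T and GATA4 did not (adjusted p = 0.054 and 0.13), though both did with the block (adjusted p = 0.011 and 0.043).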

How the data were processed

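Native ChIP-seq of H3K4me1 and input was used for 4 genotypes, with the other histone marks and RNA-seq (12 libraries, 3 per genotype) beside it. Per the submitters' processing notes and the methods, the authors trimmed reads with Trim Galore 0.4.0, aligned ChIP-seq reads to GRCh38 with Bowtie2 2.2.5 and RNA-seq reads with TopHat2 2.0.12, counted them in SeqMonk and deposited log2 RPM. Each histone or input column was a mean of 2 libraries, as the steps between its low values show, although the methods give 3 biological replicates. A window or gene without a read had been entered as 0.9 of 1 read.

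Values were returned to RPM, and differences were taken on log2(RPM + 0.1), which understates those of low windows. The counting SE was computed from the recovered depths, for log2(RPM) without the 0.1 added. For gene lists, 1 window per gene name was kept, the one with the most WT H3K4me1. The named windows were the 12 lowest and 12 highest of those at 5 RPM or more whose input differed by 0.5 or less, leaving out names of clones, small RNAs and numbered loci and all but the first gene within 50 kb, with the lowest and highest members of lists and EZH2, GATA4, SOX17, T and TBX3. The members and lists were chosen with earlier results of these data known. Other genes named with values, and those in the paragraphs on loci and on RNA, were chosen after their values were seen. Of the window centres, 88.5% lay within 10 bases of a GENCODE 44 transcript start.

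RNA was tested with limma 3.58.1 in R 4.3.3 (trend, Benjamini-Hochberg adjustment) on the same scale in the 12 libraries together, for 20608 genes that averaged 0.1 RPM or more, with values of 0.9 of a read returned to 0. A count model was not used, because the deposited values are log2 RPM. Depth was 16.6 M to 36.6 M reads on genes. Same-numbered Null and Null+EZH2 libraries deviated together (r = 0.24, 0.19 and 0.41 for numbers 1 to 3), which by the rule that every pair exceed 0.1 was taken as pairing, a hint from the data and not from the labels. Differently numbered libraries ranged from -0.32 to 0.21, Null 1 with Null+EZH2 2 being above pair 2, and the values with the block are given beside the counts. The labels do not say whether libraries came from separate cultures, so the p values measure the spread between these libraries. The difference and the limma fit were tested on simulated data. Python 3.11.15 was used for the rest.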

Additional observations from a re-analysis of the deposited data

How the results depend on the processing

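The ChIP-seq differences have 1 column per genotype and no replicate check, and depth limits windows under 1 RPM most. The median over all windows (-0.11) was -0.079 with a pseudocount of 1 RPM, -0.112 without one, -0.14 after subtracting the input difference, -0.13 centred on windows with neither mark, -0.13 for windows of at least 1 RPM, and -0.0042 scaled for the spread (an alternative chosen after seeing the data, like the 1.5-fold threshold). The input median (0.05) was 0.029 with a pseudocount of 1 RPM and 0.048 without one. At windows with H3K27me3 the median (-0.32) was -0.26 with a pseudocount of 1 RPM, -0.37 input-corrected, -0.34 centred and -0.17 scaled for the spread, and that of HOX genes (-0.58) was -0.41 scaled. The count of windows 2-fold higher (187) was 6 with a pseudocount of 1 RPM, 441 input-corrected, 296 scaled for the spread, 1292 without a filter, 0 at 5 RPM or more, 48 with 1 window per gene name and 2365 at 1.5-fold. The count 2-fold lower (175) was 21, 2142, 310 without a filter, 15, 59 and 5356 under the same settings in that order, scaling for the spread apart, which left it at 213. So the balance of both directions depends on the filter and the input correction, and the cause was not tested. Without HOX genes 142 windows were 2-fold lower. Of 120 values of the 24 named windows under alternatives, 115 stayed within their counting interval, 5 moved and 0 changed sign.

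For RNA, the replicate block, which pairs the libraries by number, gave 661 genes higher and 1276 lower in place of 108 and 542, with all 108 and 542 among them. Before adjustment, 1236 genes were higher and 2224 lower at p under 0.05. Without a filter on low values 59 were higher and 343 lower, and at 1 RPM or more 67 and 221. Leaving out each library in turn gave 12 to 136 higher and 106 to 640 lower, with the lowest counts without Null replicate 2. With calls from the block, the H3K4me1 median of genes lower in RNA was -0.25.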
